A study of Homo sapiens with 4 samples.

Results

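The nuclear genes of the mitochondrial respiratory chain and of the ATP synthase were taken as every gene whose platform symbol begins with NDUF, UQCR, COX4 to COX8 or ATP5, together with SDHA to SDHD and CYC1. This gave 90 of 18417 measured genes. A gene read by several probe sets was represented by the brightest of them on average. Expression was measured in 2 established human osteosarcoma lines, U2-OS and HOS, each exposed to OGE at 600 or 0 μg/mL for 24 h, with 1 array for each combination. The groups were thus OGE-treated U2-OS, control U2-OS, OGE-treated HOS and control HOS cells. All were kept in DMEM with serum, and the meaning of the abbreviation OGE is not given in the labels, nor whether arrays came from separate cultures. The question is what OGE does to the transcriptome of each line.

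Complex I takes electrons from NADH and complex II from succinate, and both pass them to coenzyme Q. Complex III hands them to cytochrome c and complex IV to oxygen, while protons are moved out across the inner mitochondrial membrane. Complex V, the ATP synthase, lets the protons return and makes ATP. A few subunits are encoded in the mitochondrial genome, and none of these was measured here under a symbol of its own.

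Of the 90 genes, 6 were core subunits of complex I, 28 its accessory subunits, 7 its assembly factors, 3 subunits of complex II, 8 of complex III, 17 of complex IV and 18 members of the ATP synthase. The other 3 were the pseudogenes ATP5F1EP2 and UQCRBP1 and the noncoding NDUFV1-DT. SDHB, NDUFS5, NDUFC2, NDUFAF8, UQCRFS1 and ATP5F1E had no probe set with a single symbol and were not analysed among the members. The gene formerly called NDUFA4 is listed as COXFA4, so it also fell outside the symbol rule and is described separately.

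Values are on a log2 scale after RMA. A difference was called by size when it reached 1, which is 2-fold, and the higher of both values was at or above the median of its array. Array medians lay between 3.58 and 3.62, and the OGE and control arrays correlated at 0.968 in U2-OS and 0.980 in HOS over all probe sets. Of 9 osteoblast markers 8 were measured, of which 6 were at or above the array median on the OGE-treated U2-OS array, 5 on control U2-OS, 6 on OGE-treated HOS and 6 on control HOS. Their summed linear level was 535.7 with OGE and 1429.3 without it in U2-OS, and 1052.1 with OGE and 1966.2 without it in HOS. These sums weigh the brightest markers most, among them COL1A1 and SPARC. With OGE, 5 of the markers were lower and 3 higher in U2-OS, with a median change of -0.065 and ALPL higher by 0.66. In HOS 6 were lower and 1 higher, with a median of -0.385. IBSP and SPP1 were below the array median throughout. The pan-leukocyte marker PTPRC and the 4 endothelial markers were also below it on every array. The epithelial markers KRT8 and KRT18 were above it on every array, and 2 of the 5 epithelial markers on OGE-treated U2-OS, 3 on control U2-OS, 4 on OGE-treated HOS and 4 on control HOS were. The epithelial list summed to 909.2 with OGE and 843.6 without it in U2-OS and to 1718.3 with OGE and 1537.2 without it in HOS. CD68 was the only one of 4 measured immune markers at or above the array median. With OGE it was higher by 1.35 in U2-OS and 1.05 in HOS, both past 2-fold, while COL1A1 and SPARC were lower by 2-fold or more in U2-OS, with -1.75 for COL1A1 and -1.4 for SPARC, and COL1A2 in HOS, with -1.25. The immune list summed to 61.2 with OGE and 32.8 without it in U2-OS, and to 74.4 with OGE and 45.4 without it in HOS. The part of these markers in the results was not tested. On bulk RNA, fewer cells of a kind and less RNA per cell cannot be told apart.

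With OGE, hardly any of these genes differed by 2-fold in either line. In U2-OS, 0 of the 76 members at the level floor were called by size, against 10.8% of all genes at the floor. In HOS 1 of 79 was called, against 3.88% of all genes. None of 76 was called in both lines, where 1.86% of all genes were. limma, which fits cell line and OGE to all 18417 genes and uses the lines as repeats, gave 0 genes at an adjusted p under 0.05, or 0.0%, and 0 members. After quantile normalization it gave 264 genes, and still 0 members. Among members the smallest adjusted p in limma was 0.242, for ATP5F1C. At an unadjusted p under 0.05 there were 15 members. Of these 12 were lower and 3 higher, 13.3% and 3.33% of the 90, while 8.52% of all genes were lower and 5.67% higher.

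The modest changes differed in direction between complexes. ATP synthase members were mostly lower with OGE, with medians of -0.19 in U2-OS and -0.25 in HOS, and cytochrome c oxidase members mostly higher, with medians of 0.24 in U2-OS and 0.10 in HOS. Of 18 ATP synthase members, 15 were lower in U2-OS and 16 in HOS, and 14 in both. Of 17 cytochrome c oxidase members, 13 were higher in U2-OS and 11 in HOS, and 11 in both. Over all genes the medians were 0.03 in U2-OS and 0.02 in HOS, with 46.2% lower in U2-OS and 46.6% in HOS. The shares of all genes that were higher were 52.7% in U2-OS and 51.9% in HOS. Of all 18417 genes, 5033 were lower and 6069 higher in both lines. Subunits of a complex are not replicates of a condition, so no test was made of the contrast between complexes.

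**Figure D1:**
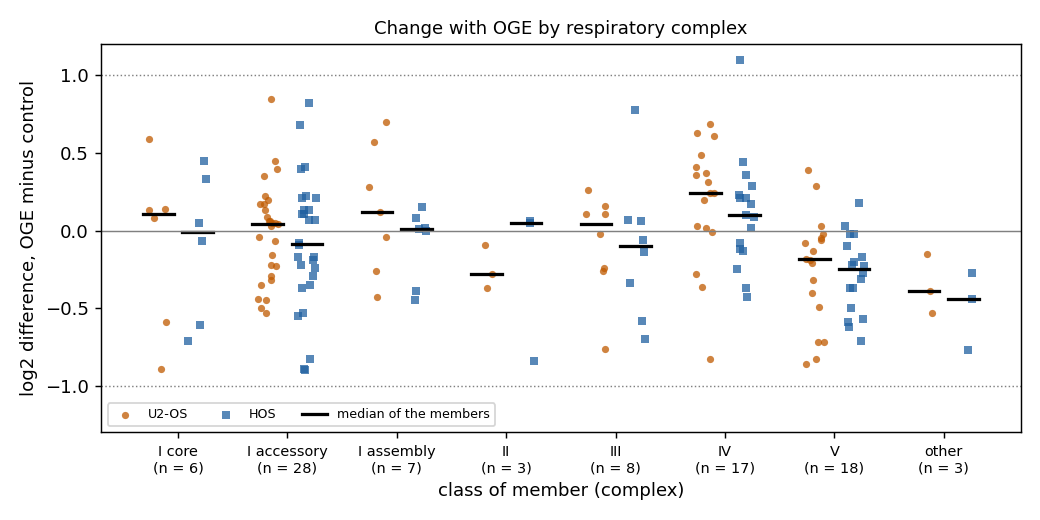
Log2 difference, OGE minus control, of each member (points) in U2-OS and HOS by complex, with the median of the members as a bar and the 2-fold threshold dotted. Complex V has medians of -0.19 in U2-OS and -0.25 in HOS, complex IV of 0.24 in U2-OS and 0.10 in HOS, and only COX6A1 in HOS lies beyond a dotted line.

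At a lower size threshold of 1.5-fold, 7 members were lower and 4 higher in U2-OS, 9.21% and 5.26% of 76, against 18.5% and 10.1% of all genes. In HOS 11 were lower and 4 higher, 13.9% and 5.06% of 79, against 9.68% and 7.43% of all genes. Lower in both lines by this threshold were ATP5F1C, NDUFS1 and NDUFV2, 3.95% of 76, against 5.82% of all genes. No member was higher in both lines, where 2.91% of all genes were. These shares were below or near those of all genes, apart from the lower members in HOS.

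The promoters of these 3 genes and of COX6A1, the member called by 2-fold, are shown because they passed the 2-fold threshold in 1 line or the 1.5-fold threshold in both. They run from 250 bases before to 50 after the annotated start in RefSeq on GRCh38.p14, written 5′ to 3′ on the strand of the gene. COX6A1 is at chr12:120437863-120438162 on the plus strand, ATP5F1C at chr10:7787927-7788226 on the plus strand, NDUFS1 at chr2:206159395-206159694 on the minus strand and NDUFV2 at chr18:9102449-9102748 on the plus strand. Capitals mark the motifs found, which are explained after them.
COX6A1: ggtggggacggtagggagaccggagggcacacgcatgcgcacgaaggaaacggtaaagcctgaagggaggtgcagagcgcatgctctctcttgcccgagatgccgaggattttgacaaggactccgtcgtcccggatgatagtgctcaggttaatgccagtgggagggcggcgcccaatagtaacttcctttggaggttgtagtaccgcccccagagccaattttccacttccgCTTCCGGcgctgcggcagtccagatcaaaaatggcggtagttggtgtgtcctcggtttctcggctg
ATP5F1C: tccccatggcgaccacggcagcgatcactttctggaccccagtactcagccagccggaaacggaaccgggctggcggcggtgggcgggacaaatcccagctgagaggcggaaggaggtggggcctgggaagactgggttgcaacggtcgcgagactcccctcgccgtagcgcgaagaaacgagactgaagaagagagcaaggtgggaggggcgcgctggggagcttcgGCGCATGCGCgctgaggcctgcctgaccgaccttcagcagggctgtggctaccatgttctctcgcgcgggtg
NDUFS1: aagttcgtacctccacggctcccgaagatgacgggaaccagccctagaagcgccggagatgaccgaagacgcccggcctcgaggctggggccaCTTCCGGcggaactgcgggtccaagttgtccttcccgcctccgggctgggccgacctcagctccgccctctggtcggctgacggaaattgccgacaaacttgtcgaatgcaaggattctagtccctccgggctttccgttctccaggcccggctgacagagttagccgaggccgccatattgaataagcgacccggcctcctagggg
NDUFV2: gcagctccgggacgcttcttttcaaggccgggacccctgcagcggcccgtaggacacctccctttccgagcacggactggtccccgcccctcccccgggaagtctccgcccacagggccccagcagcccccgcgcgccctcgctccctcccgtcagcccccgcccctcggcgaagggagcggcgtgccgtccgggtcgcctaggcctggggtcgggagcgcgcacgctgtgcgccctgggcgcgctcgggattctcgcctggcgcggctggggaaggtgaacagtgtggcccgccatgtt

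Exact matches on either strand were sought for 3 sequences bound by regulators of respiratory genes. That of NRF1 is the run in capitals in ATP5F1C, which is its own reverse complement, and that of ETS factors such as GABPA is CCGGAAG. The letters of the one for YY1 are not printed here. RefSeq gave a promoter for 74 of the members. The NRF1 sequence was in 5 of 74, or 6.76%, against 1.36% of all 27305 promoters of this length and 1.75% of those of protein-coding genes. The YY1 sequence was in 6, or 8.11%, against 1.28% and 1.93%. The ETS sequence was in 20, or 27.0%, against 10.7% and 14.2%. With positions counted from the start, ATP5F1C held the NRF1 sequence at -22 to -13. On the opposite strand, COX6A1 held the ETS sequence at -16 to -10 and NDUFS1 at -157 to -151, while NDUFV2 held none of the 3. Members with the ETS sequence had a median change with OGE of 0.04 in U2-OS and 0.02 in HOS, and the 54 without it of 0.01 in U2-OS and -0.17 in HOS. With the NRF1 sequence the medians were -0.29 in U2-OS and -0.37 in HOS over 5 members, and without it 0.05 in U2-OS and -0.08 in HOS over 69. With the YY1 sequence they were -0.07 in U2-OS and -0.02 in HOS over 6, and without it 0.03 in U2-OS and -0.13 in HOS over 68. A match describes the letters only, and shared letters do not show binding.

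Among the 6 core subunits of complex I, which carry the electron path, the changes with OGE split. NDUFS1, the largest iron-sulphur subunit, was at 6.68 with OGE and 7.57 without it in U2-OS, and at 7.27 with OGE and 7.88 without it in HOS. Its mean change was -0.75 ± 0.20 (SD, n = 2 lines), and the adjusted p in limma was 0.248. NDUFV2, an iron-sulphur subunit of the NADH-oxidising module, was at 4.56 with OGE and 5.15 without it in U2-OS and at 5.50 with OGE and 6.21 without it in HOS. Both arrays with OGE lay below both controls for NDUFS1, whereas for NDUFV2 the OGE array of HOS lay above the control of U2-OS. Such separation, here and for members below, adds no support where genes were named by the size of their change. Its share over all genes was not counted. The second probe set of NDUFV2 had changes of -0.52 in U2-OS and -0.83 in HOS, close to the -0.59 in U2-OS and -0.71 in HOS of the first. The flavin-binding subunit NDUFV1 had changes of 0.14 in U2-OS and 0.45 in HOS, NDUFS8 of 0.13 in U2-OS and 0.33 in HOS, NDUFS7 of 0.59 in U2-OS and 0.05 in HOS and NDUFS3 of 0.08 in U2-OS and -0.07 in HOS. The class median was 0.11 in U2-OS and -0.01 in HOS.

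Of the 28 accessory subunits of complex I, 12 were lower in U2-OS and 15 in HOS, with medians of 0.05 in U2-OS and -0.09 in HOS, and 8 were lower and 9 higher in both lines. In the arm that faces the matrix, NDUFA12 had changes of -0.50 in U2-OS and -0.89 in HOS and NDUFA5 of -0.45 in U2-OS and -0.83 in HOS. In the membrane arm, NDUFB6 had changes of -0.35 in U2-OS and -0.90 in HOS and NDUFB5 of -0.53 in U2-OS and -0.55 in HOS. NDUFB6 lay near the array medians, and below the median on the OGE array of HOS. It was at 3.68 with OGE and 4.03 without it in U2-OS, and at 2.86 with OGE and 3.76 without it in HOS. Higher values with OGE were found for NDUFB11, a membrane arm subunit, with 0.40 in U2-OS and 0.68 in HOS, and for NDUFA13, also known as a cell death regulator, with 0.45 in U2-OS and 0.41 in HOS. In HOS the accessory subunits thus ranged from -0.90 for NDUFB6 to 0.82 for NDUFA11. NDUFA11 was at 6.25 with OGE and 6.41 without it in U2-OS, and at 7.14 with OGE and 6.32 without it in HOS. The change of NDUFA11 therefore had opposite signs in the lines. NDUFB3 also had opposite signs, with 0.85 in U2-OS and -0.29 in HOS, but all its values were below the array medians. The remaining accessory subunits had changes between -0.44 and 0.35 in U2-OS and between -0.53 and 0.40 in HOS.

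The 7 assembly factors of complex I had medians of 0.12 in U2-OS and 0.01 in HOS. NDUFAF4 was at 4.90 with OGE and 4.20 without it in U2-OS, and at 5.20 with OGE and 5.18 without it in HOS. NDUFAF1, which acts early in building the membrane arm, was at 5.58 with OGE and 5.01 without it in U2-OS and at 6.19 with OGE and 6.64 without it in HOS. Its level was thus higher with OGE in U2-OS and lower in HOS, and on all 4 arrays the U2-OS values were below those of HOS. NDUFAF7, a methyltransferase, had changes of -0.43 in U2-OS and -0.39 in HOS. NDUFAF2, NDUFAF3, NDUFAF5 and NDUFAF6 had changes between -0.26 and 0.28. The second probe set of NDUFAF2 had changes of 0.63 in U2-OS and -0.26 in HOS. All values of NDUFAF5 and NDUFAF6 were below the array medians.

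In complex II, 3 of the 4 subunits were measured. SDHA, the flavoprotein that oxidises succinate, was at 8.41 with OGE and 8.78 without it in U2-OS, and at 9.23 with OGE and 9.18 without it in HOS. Of the membrane anchors, SDHC had changes of -0.28 in U2-OS and 0.06 in HOS and SDHD of -0.09 in U2-OS and -0.84 in HOS. The second probe set of SDHD had 0.05 in U2-OS and -0.51 in HOS, so its values in HOS were lower with OGE by both probe sets. The sign in U2-OS depended on the probe set.

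In complex III, UQCRC1, a core protein of the matrix side, was at 7.41 with OGE and 7.30 without it in U2-OS, and at 7.90 with OGE and 7.12 without it in HOS. Its partner UQCRC2 had changes of -0.26 in U2-OS and -0.34 in HOS, opposite in sign to those of UQCRC1. UQCRB had changes of -0.76 in U2-OS and -0.58 in HOS, with all values below the array medians. The small subunit UQCR10 had changes of -0.02 in U2-OS and -0.70 in HOS, and CYC1, the cytochrome that passes electrons to cytochrome c, of 0.26 in U2-OS and 0.07 in HOS. UQCRH, UQCRQ and UQCR11 had changes between -0.24 and 0.16. The class median was 0.05 in U2-OS and -0.10 in HOS.

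In complex IV, COX6A1 was the member called by size with OGE. It was at 9.04 with OGE and 8.63 without it in U2-OS, a change of 0.41, and at 9.36 with OGE and 8.26 without it in HOS, a change of 1.10. Both arrays with OGE lay above both controls. Its second probe set had changes of 0.42 in U2-OS and 1.03 in HOS. limma gave it a mean change of 0.76 with an SE of 0.23 and an adjusted p of 0.296. COX4I1, the regulatory subunit that binds ATP, was at 6.34 with OGE and 5.85 without it in U2-OS and at 6.26 with OGE and 5.82 without it in HOS. The groups with and without OGE did not overlap for COX4I1, and its adjusted p in limma was 0.341. COX5B had changes of 0.61 in U2-OS and 0.21 in HOS, COX7A2L, which helps join complexes into supercomplexes, of 0.37 in U2-OS and 0.17 in HOS, and COX6B1 of 0.31 in U2-OS and 0.23 in HOS.

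Against the direction of most of complex IV, COX6C was at 6.13 with OGE and 6.96 without it in U2-OS, and at 6.49 with OGE and 6.57 without it in HOS. COX5A, which sits on the matrix side, had changes of 0.20 in U2-OS and -0.37 in HOS. COX7A2, COX7B, COX7C and COX8A had changes between -0.13 and 0.36, and COX8A differed by no more than 0.03 in either line. Complex IV also has isoforms known from restricted tissues. Of the muscle isoforms, COX6A2 had changes of 0.69 in U2-OS and 0.29 in HOS and COX7A1 of 0.36 in U2-OS and 0.21 in HOS. COX6A2 was above the array medians on all 4 arrays. The testis isoforms COX6B2, COX7B2 and COX8C were below the array medians on every array, with changes between -0.43 and 0.63. COX4I2, whose transcript responds to low oxygen in other cells, was at 3.50 with OGE and 3.48 without it in U2-OS and at 3.98 with OGE and 3.89 without it in HOS.

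COXFA4, a complex IV subunit once assigned to complex I, was at 5.93 with OGE and 6.32 without it in U2-OS, and at 5.41 with OGE and 5.83 without it in HOS. Its paralog COXFA4L2, a target of hypoxia signalling, was at 4.40 with OGE and 4.52 without it in U2-OS and at 4.54 with OGE and 4.52 without it in HOS. For COXFA4 both changes were negative, -0.39 in U2-OS and -0.42 in HOS, unlike those of most of the named complex IV members. Neither gene was called by size in any comparison.

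**Figure D2:**
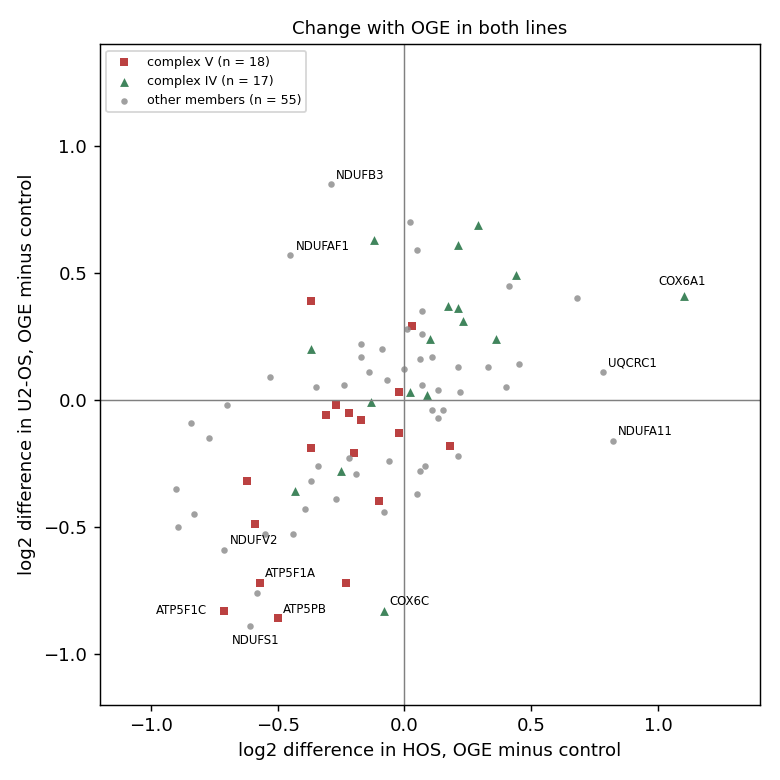
Log2 difference, OGE minus control, in U2-OS against that in HOS for each of the 90 members. ATP5F1C, ATP5F1A, ATP5PB and NDUFS1 lie at the lower left, COX6A1 at the right, and NDUFB3 and NDUFAF1 have opposite signs in the lines.

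In the ATP synthase the lower values were largest in the catalytic head with its central stalk and in the peripheral stalk, a structural grouping made after the values had been seen. ATP5F1C, the rotor shaft of the head, was at 9.08 with OGE and 9.91 without it in U2-OS, and at 9.24 with OGE and 9.95 without it in HOS. Its mean change was -0.77 ± 0.08 (SD, n = 2 lines), with an SE of 0.17 in limma. Both arrays with OGE lay below both controls, with little difference between the lines. The alpha subunit ATP5F1A was at 7.78 with OGE and 8.50 without it in U2-OS and at 7.63 with OGE and 8.20 without it in HOS. The catalytic beta subunit ATP5F1B had smaller changes of -0.40 in U2-OS and -0.10 in HOS, and the delta subunit ATP5F1D had 0.29 in U2-OS and 0.03 in HOS. The medians of these 4 were -0.56 in U2-OS and -0.34 in HOS.

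The peripheral stalk, which holds the head still against the rotor, had medians of -0.61 in U2-OS and -0.44 in HOS, and all 4 of its members were lower in both lines. ATP5PB, the long stalk helix, was at 5.60 with OGE and 6.46 without it in U2-OS, and at 6.03 with OGE and 6.53 without it in HOS. ATP5PO, which couples the stalk to the head, was at 6.74 with OGE and 7.23 without it in U2-OS and at 6.28 with OGE and 6.87 without it in HOS. ATP5PD had changes of -0.72 in U2-OS and -0.23 in HOS and ATP5PF of -0.19 in U2-OS and -0.37 in HOS. Adjusted p in limma for ATP5F1A, ATP5PB and ATP5PO lay between 0.262 and 0.301, so none passed. The 9 members of the membrane part had smaller medians of -0.08 in U2-OS and -0.20 in HOS. Among them ATP5MG had changes of -0.32 in U2-OS and -0.62 in HOS, and ATP5MC1, a gene for the rotor ring, of 0.39 in U2-OS and -0.37 in HOS. The other ring genes ATP5MC2 and ATP5MC3 had changes between -0.27 and -0.02. The 3 ring genes encode the same mature peptide in humans, and ATP5MC3 was below the array medians. ATP5IF1, the inhibitor of ATP hydrolysis, had changes of -0.05 in U2-OS and -0.22 in HOS. ATP5ME, ATP5MF, ATP5MJ, ATP5MK and ATP5MGL lay between -0.31 and 0.18.

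**Figure D3:**
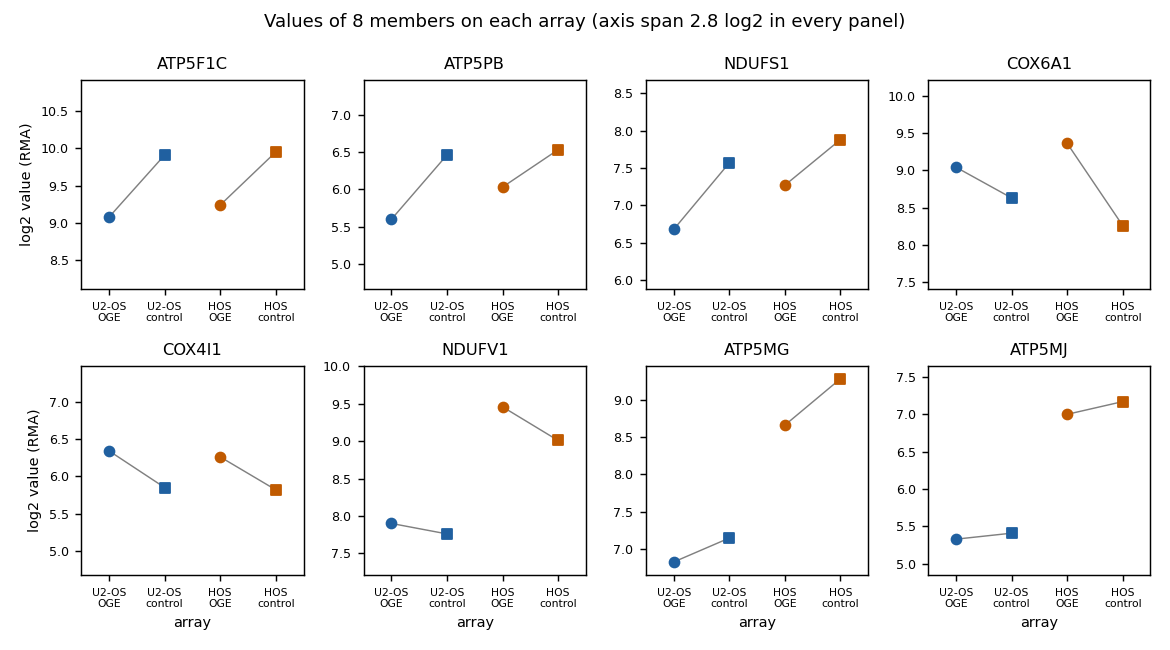
RMA log2 values of 8 members on each of the 4 arrays, with OGE (circles) and control (squares) joined within a line and U2-OS left of HOS. ATP5F1C, ATP5PB and NDUFS1 are lower with OGE in both lines, COX6A1 and COX4I1 higher, and NDUFV1, ATP5MG and ATP5MJ lie lower in U2-OS than in HOS.

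Across the 90 members, r between the U2-OS and HOS changes was 0.522, against 0.442 across all genes and 0.574 across the 9209 genes with mean levels at the median or higher. Genes are not independent replicates, so this is a description. The spread over members (SD) was 0.39 in U2-OS and 0.39 in HOS, against 0.63 in U2-OS and 0.46 in HOS among those 9209 genes. Of the pseudogenes, ATP5F1EP2 had changes of -0.53 in U2-OS and -0.44 in HOS and UQCRBP1 of -0.15 in U2-OS and -0.77 in HOS, and NDUFV1-DT of -0.39 in U2-OS and -0.27 in HOS. ATP5F1EP2 resembles the ATP5F1E gene in sequence, so their signals may not be separable on these probes.

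Gene span moved with the change. Spearman's rho between RefSeq span and change was -0.24 in U2-OS and -0.19 in HOS over the 90 members, and -0.34 in U2-OS and -0.25 in HOS over the 9204 of those genes with a span. Within the ATP synthase rho was -0.67 in U2-OS and -0.50 in HOS over 18 genes, and within the accessory subunits of complex I -0.39 in U2-OS and -0.46 in HOS over 28. The 30 members with spans over 13156 bases had medians of -0.26 in U2-OS and -0.27 in HOS, and the 30 shortest, up to 5849 bases, of 0.05 in U2-OS and -0.04 in HOS. Median spans were 8040 bases in complex V and 7095 in complex IV, both shorter than the 24474 of all genes. ATP5F1A, ATP5F1C and ATP5PB, among the members with the lowest changes in complex V, were also among its longest genes, with 23980, 19625 and 13310 bases. ATP5MC2, with 16254 bases, is longer than ATP5PB but had changes of only -0.13 in U2-OS and -0.02 in HOS. The part of span in these changes was not tested.

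Between the lines, most of the members were lower in U2-OS than in HOS, whether or not OGE was present. The median difference over both states was -0.22, against -0.02 over all genes, and 54 members were lower and 16 higher in U2-OS in both states. Of all 18417 genes, 6171 were lower and 5401 higher in U2-OS in both states. By size, 3 members were lower in U2-OS with OGE and 7 without it, 3.85% and 8.97% of 78, against 6.24% and 5.64% of all genes. ATP5MG, ATP5MJ and NDUFV1 were among them in both states, and ATP5MC1, NDUFA5, NDUFAF1 and NDUFV2 without OGE. No member was higher by size in U2-OS, where 4.89% of all genes were with OGE and 8.26% without it. In both states 3 of 77 were lower, 3.9%, against 3.17% of all genes, and 0 higher, against 3.0%. The share lower by 2-fold was thus near that of all genes.

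For the difference between the lines, limma used the treatment states as repeats, not replicate arrays of a group. With limma, 3 members were lower in U2-OS at an adjusted p under 0.05, or 3.33% of 90, against 1.04% of all genes, and 0 were higher, against 0.885%. At an unadjusted p under 0.05, 28 members were lower and 3 higher in U2-OS, 31.1% and 3.33%, whereas the shares of all genes were 10.4% and 10.3%. By the 1.5-fold threshold in both states, 12 of 77 members were lower, 15.6% against 8.42% of all genes, and 0 higher, against 7.61%.

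ATP5MG, a membrane subunit at the dimer interface of the synthase, was at 6.83 with OGE and 7.15 without it in U2-OS, against 8.66 with OGE and 9.28 without it in HOS. The difference was -1.98 ± 0.21 (SD, n = 2 states), with an SE of 0.18 and an adjusted p of 0.0391 in limma. ATP5MJ, a small proteolipid of the synthase, was at 5.33 with OGE and 5.41 without it in U2-OS, against 7.0 with OGE and 7.17 without it in HOS, with a difference of -1.72 and an adjusted p of 0.0405 in limma. NDUFV1, which binds NADH and the flavin at the entry of complex I, was at 7.90 with OGE and 7.76 without it in U2-OS, against 9.46 with OGE and 9.01 without it in HOS. Its difference was -1.41 and its adjusted p in limma 0.0488. For all 3 genes the values of the lines did not overlap, which adds no support, because they were named for passing between the lines. Without the OGE term in the model, ATP5MG and NDUFV1 no longer passed, with adjusted p of 0.0628 for ATP5MG and 0.0815 for NDUFV1 in limma, and ATP5MJ did, with 0.0420. The 6 alternatives changed the model, the genes tested, the scaling or the use of probe sets. Over them, adjusted p in limma ranged from 0.00191 to 0.0628 for ATP5MG, from 0.00245 to 0.0420 for ATP5MJ and from 0.00731 to 0.0815 for NDUFV1. The lowest value of each gene came after quantile normalization.

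The promoters of these 3 genes are shown because they passed the test between the lines. They lie at chr11:118401356-118401655 on the plus strand for ATP5MG, chr14:103921480-103921779 on the minus strand for ATP5MJ and chr11:67606686-67606985 on the plus strand for NDUFV1, with the same build, window and capitals as above.
ATP5MG: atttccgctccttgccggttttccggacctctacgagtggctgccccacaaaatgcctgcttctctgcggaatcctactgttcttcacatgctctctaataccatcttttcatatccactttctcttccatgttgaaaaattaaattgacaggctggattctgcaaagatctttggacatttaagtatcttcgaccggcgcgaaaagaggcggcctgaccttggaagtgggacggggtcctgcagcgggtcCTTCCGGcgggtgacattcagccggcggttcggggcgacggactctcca
ATP5MJ: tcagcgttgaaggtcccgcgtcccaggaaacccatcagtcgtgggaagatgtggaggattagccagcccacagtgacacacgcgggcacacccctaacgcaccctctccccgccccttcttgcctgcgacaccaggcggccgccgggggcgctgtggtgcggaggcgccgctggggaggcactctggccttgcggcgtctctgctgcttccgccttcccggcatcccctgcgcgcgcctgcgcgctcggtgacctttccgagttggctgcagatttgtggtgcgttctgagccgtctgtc
NDUFV1: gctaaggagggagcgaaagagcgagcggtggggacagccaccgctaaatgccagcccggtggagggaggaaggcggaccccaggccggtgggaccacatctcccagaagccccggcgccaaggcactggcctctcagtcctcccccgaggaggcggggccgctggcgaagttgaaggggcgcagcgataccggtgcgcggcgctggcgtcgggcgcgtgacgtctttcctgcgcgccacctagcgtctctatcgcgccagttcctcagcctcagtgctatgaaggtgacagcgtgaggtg

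ATP5MG held the ETS sequence on the opposite strand at positions 1 to 7 from its start, and ATP5MJ and NDUFV1 held none of the 3 sequences in this window. The noncoding NDUFV1-DT had differences between the lines of -0.64 with OGE and -0.52 without it, at values below the array medians.

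By complex, the core subunits of complex I had the lowest median difference between the lines, -0.61, and all 6 were lower in U2-OS without OGE and 5 with it. NDUFV2 differed by -0.94 with OGE and -1.06 without it, NDUFS8 by -0.79 with OGE and -0.59 without it, NDUFS3 by -0.46 with OGE and -0.61 without it and NDUFS1 by -0.59 with OGE and -0.31 without it. NDUFS7 was the exception, at 0.05 with OGE and -0.49 without it. Accessory subunits of complex I had a median of -0.41, with 18 of 28 lower and 6 higher in both states. NDUFA5 was at 3.18 with OGE and 3.63 without it in U2-OS, against 4.09 with OGE and 4.92 without it in HOS, and NDUFA10 differed by -0.83 with OGE and -0.68 without it. Higher in U2-OS in both states were NDUFA6 at 0.34 with OGE and 0.70 without it, NDUFB9 at 0.65 with OGE and 0.37 without it and NDUFB4 at 0.47 with OGE and 0.42 without it. Both probe sets of NDUFB4 had the same value on every array.

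Assembly factors of complex I had a median difference of -0.25, and the largest was that of NDUFAF1 at -0.61 with OGE and -1.63 without it. In complex II, SDHA differed by -0.82 with OGE and -0.40 without it and SDHD by 0.79 with OGE and 0.04 without it. The second probe set of SDHD differed by 0.16 with OGE and -0.40 without it, so the difference depended on the probe set. Complex III had a median of -0.07, where UQCR11 differed by -0.84 with OGE and -0.66 without it and CYC1 by 0.46 with OGE and 0.27 without it. Complex IV had a median of -0.03, with 7 of 17 members lower and 3 higher in both states, and COX7A2 differed by -0.40 with OGE and -0.54 without it. In the ATP synthase 13 of 18 were lower and 3 higher. The higher ones were ATP5PD at 0.40 with OGE and 0.89 without it, ATP5PO at 0.46 with OGE and 0.36 without it and ATP5F1A at 0.15 with OGE and 0.30 without it. ATP5F1D differed by -0.68 with OGE and -0.94 without it, ATP5MK by -0.61 with OGE and -0.60 without it and ATP5F1B by -0.74 with OGE and -0.44 without it. The membrane part of the synthase, with a median of -0.61, and the peripheral stalk, with 0.21, thus had medians of opposite sign.

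**Figure D4:**
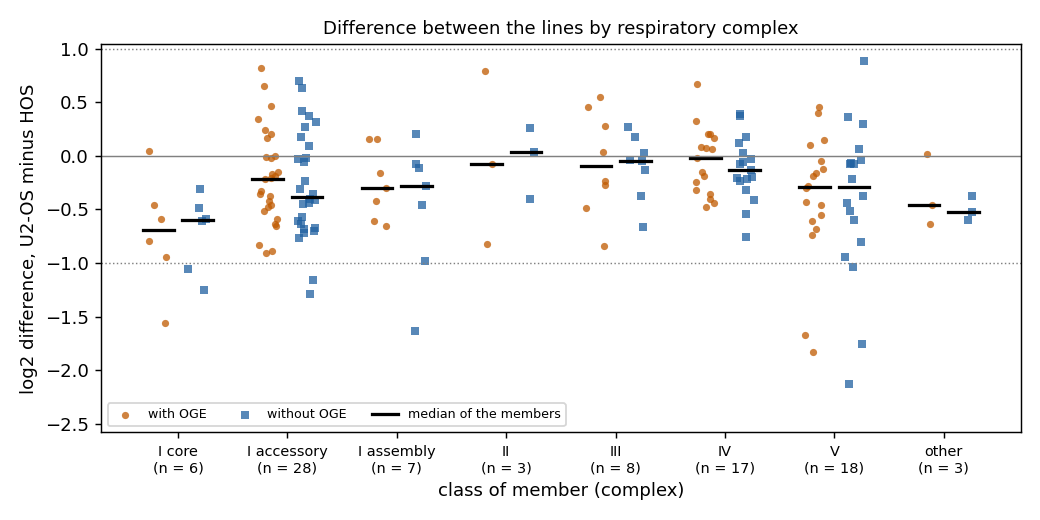
Log2 difference, U2-OS minus HOS, of each member (points) with and without OGE by complex, with the median of the members as a bar and the 2-fold threshold dotted. Complex I core lies lowest by median, and ATP5MG at -1.83 with OGE and -2.13 without it and ATP5MJ at -1.67 with OGE and -1.76 without it are the lowest points of complex V.

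Other genes that serve the chain were taken from fixed lists. Of 43 assembly factors of complexes I to V outside the symbol rule, 36 were measured, and 0 were called with OGE in either line, with medians of -0.07 in U2-OS and 0.04 in HOS. Of all genes at the floor, 10.8% were called with OGE in U2-OS and 3.88% in HOS. Between the lines 6 of the 36 were lower by size in U2-OS with OGE and 3 without it, where 6.24% and 5.64% of all genes at the floor were. In the other direction 0 were higher with OGE and 1 without it, where 4.89% and 8.26% of all genes were. SCO1, a copper chaperone of complex IV, was at 4.24 with OGE and 4.30 without it in U2-OS, against 5.75 with OGE and 6.53 without it in HOS, and passed limma with an adjusted p of 0.0470. Of 13 genes of the tricarboxylic acid cycle, which feeds NADH and succinate to the chain, 11 were measured, with median changes with OGE of -0.28 in U2-OS and -0.36 in HOS. DLD, a subunit shared by several dehydrogenases, was called in both lines, as were 1.86% of all genes. It was at 5.36 with OGE and 6.94 without it in U2-OS, and at 6.46 with OGE and 7.67 without it in HOS, with an adjusted p of 0.228 in limma. IDH3B, a subunit of the NAD-dependent isocitrate dehydrogenase, differed between the lines by -1.34 with OGE and -1.30 without it, with an adjusted p of 0.0473 in limma.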

How the data were processed

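Expression was measured on 4 single-colour arrays, 1 per group. The deposited values are log2 expression, and the submitters' processing notes name RMA without a version; the log base was taken from the range, 0.16 to 13.41. RMA commonly sets arrays to a common distribution, which hides any change shared by the whole transcriptome. The deposited arrays did not fully share one, since further quantile normalization moved values. The median difference between the lines in the complex I core, for example, went from -0.61 to -0.49. Of 33297 probe sets, 19460 had 1 symbol in the 2016 platform annotation, 1754 several and 12083 none. Gene IDs of 19429 matched RefSeq on GRCh38.p14, giving 18417 genes. Precision is limited by the number of arrays, and no p-value was computed within a line.

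limma 3.58.1 in R 4.3.3 was fitted to all genes with cell line and OGE as terms and 1 residual degree of freedom, and p-values were adjusted by Benjamini-Hochberg with a threshold of 0.05. The residual is how far the OGE change differs between the lines, moderated over all genes. The lines serve as repeats for OGE, and the treatment states for the difference between the lines. The p-values thus measure no spread between arrays of the same group. A line-specific response to OGE and technical spread cannot be told apart in them. Arrays of the same line were paired through the line itself, and the labels name no other batch. Alternatives were other thresholds and floors, quantile normalization, cyclic loess, the mean of probe sets, other models and other member sets.

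The members and lists were chosen with earlier results of these data known. Named genes are members called by size, up to 2 per direction and class with the largest OGE change or line difference, catalytic members, isoform sets, and up to 4 per other list; further members were named to account for each complex. Classes follow known subunit roles. RefSeq gave the promoters. Of the 90 members, 8 had more than 1 probe set.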

Additional observations from a re-analysis of the deposited data

Results flagged for a closer look

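The response of NDUFAF1 to OGE had opposite signs in the lines, 0.57 in U2-OS and -0.45 in HOS, and differed by 1.02 between them. It was the member with opposite signs, values at the array median or above, and a difference of responses of at least 1. This difference was not tested.

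Probe sets that the annotation gives to several genes entered no comparison of members, and 2 of them passed the size threshold. A probe set shared by SDHA and the pseudogenes SDHAP1, SDHAP2 and SDHAP3 was at 6.06 with OGE and 7.09 without it in U2-OS, a change of -1.03, and at 7.53 with OGE and 7.32 without it in HOS. With OGE, the lines differed by -1.47 there. The probe set of SDHA alone had changes of -0.37 in U2-OS and 0.05 in HOS. A probe set shared by KCTD14 and the read-through gene NDUFC2-KCTD14 differed by 1.14 between U2-OS and HOS without OGE and by 0.47 with it.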

How the results depend on the processing

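A result counted as moved when a median shifted by more than 0.1 (log2) or a count by more than 1.5 times. With 1.5-fold in place of 2-fold, 11 members were called in U2-OS, 15 in HOS, 3 in both lines and 12 between the lines, and at 3-fold 0 in HOS; these shifts follow from the threshold itself. Counting probe sets with several symbols, an alternative chosen after seeing the data, gave 1 call in U2-OS. Of the medians by complex, 76 stayed within 0.1 and 8 did not. Over members at or above the median level, the accessory subunits of complex I had 0.07 in HOS in place of -0.09, and the assembly factors 0.28 in U2-OS in place of 0.12. After quantile normalization the core of complex I had 0.21 in U2-OS with OGE and -0.49 between the lines, or -0.50 after cyclic loess, and complex III had 0.0459 or 0.0375 between the lines in place of -0.07. With the mean of probe sets complex II had -0.11 between the lines in place of 0.09. The cause was not tested. For OGE, limma called 0 members in each alternative, with smallest adjusted p from 0.0981 to 0.761 and 7 to 17 members at an unadjusted p under 0.05; over all genes it called 264 after quantile normalization, 1 with trend and robust moderation and 0 in the others. Between the lines limma called 3 members and 354 genes as reported, 1 and 131 with no replicate block, that is without the OGE term, 5 and 1309 when the variance was moderated with a trend and robustly, 7 and 1763 with quantile-normalized values and 5 and 1326 with cyclic loess, so the counts over all genes moved as well. Of the 7, ATP5PD was higher in U2-OS and the other 6 lower. Lower ATP synthase members numbered 15 in U2-OS under every scaling tried, and from 14 to 16 in HOS. With 1 array per group, no array could be left out within a line.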

Other observations

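Some genes outside the chain passed the 2-fold threshold with OGE. In the list of hypoxia control of respiration, 9 genes were measured, among them ATP5IF1, which is also a member. Of the 9, 2 were higher by size in U2-OS and 1 lower in HOS. Of all genes at the floor, 10.8% in U2-OS and 3.88% in HOS were called in either direction. PDK1, a kinase that holds back entry of pyruvate into the mitochondrion's citrate cycle, was at 6.64 with OGE and 3.96 without it in U2-OS, and at 5.89 with OGE and 5.30 without it in HOS. BNIP3, a mitophagy receptor, was at 7.52 with OGE and 4.53 without it in U2-OS and at 7.02 with OGE and 6.19 without it in HOS. LONP1, the matrix protease, had changes of 0.98 in U2-OS and 0.51 in HOS, and HIGD1A, a complex IV-associated protein, of -0.63 in U2-OS and -1.13 in HOS.

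Among 8 other electron donors to coenzyme Q, GPD2, the mitochondrial glycerol phosphate dehydrogenase, was at 3.94 with OGE and 5.52 without it in U2-OS, a change of -1.58, and at 4.17 with OGE and 5.00 without it in HOS. ETFDH had changes of -0.93 in U2-OS and -0.98 in HOS. The 14 regulators of mitochondrial gene expression had medians of 0.28 in U2-OS and -0.08 in HOS. With OGE 0 were called, against 10.8% of all genes in U2-OS and 3.88% in HOS. Among the regulators TWNK, the mitochondrial DNA helicase, had changes of 0.96 in U2-OS and 0.98 in HOS and TFAM of -0.79 in U2-OS and -0.12 in HOS. Of 15 genes for cytochrome c and coenzyme Q, 0 were called with OGE, against the same shares of all genes. Their medians were -0.14 in U2-OS and -0.15 in HOS. HCCS, which attaches heme to cytochrome c, differed between the lines by -1.53 with OGE and -1.60 without it, with an adjusted p of 0.0417 in limma.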
